A study of Mus musculus with 16 samples.

Results

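Kinesins are motor proteins that walk along microtubules and carry vesicles, organelles and RNA, and this account describes the genes of that family in the mouse hippocampus after learned helplessness. The members were the genes whose name begins with Kif or Klc and that have transcripts in the class of protein-coding genes, which gave 40 genes of 14785 and 152 transcripts of 80137. Total RNA of the hippocampus was sequenced from 16 male C57BL/6 mice aged 3 months, with 4 mice in each of 4 groups, and each mouse was a separate sample with its left and right hippocampi pooled. Home cage mice (HC) were neither handled nor shocked nor tested. Control mice (Ctrl) were put in the shuttle box on the induction day with 0 inescapable shocks, and later went through 30 escape trials at 0.4 mA. The other mice received 180 inescapable shocks at 0.4 mA and then the same 30 escape trials, and were divided by their escape behavior into non-helpless (NLH) and helpless (LH) mice. The groups therefore carry no genetic change or drug, NLH and LH were separated after the shocks by how the mice behaved, and the hippocampi were collected 3 h after that testing.

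Conventional kinesin, kinesin-1, pairs heavy chains that hold the motor with light chains that hold cargo. Kinesin-2 and kinesin-3 motors move other cargoes outward along axons and dendrites, among them the precursors of synaptic vesicles. Some family members do not carry cargo at all: kinesin-13 proteins take microtubule ends apart, and a group of mitotic kinesins moves chromosomes and spindles in dividing cells. Neurons depend on these motors because most of their proteins are made in the cell body, far from the synapses. Because whole hippocampus was sequenced, fewer cells of a type and less RNA per cell cannot be told apart in any value below.

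All values are FPKM, the fragments of a transcript relative to its length and to the mapped fragments of the library, a level per length that allows genes to be compared with each other, and a gene's level is the sum over its named transcripts. Log2 differences are on the scale of log2(FPKM + 0.1), which understates the differences of low genes. The summed FPKM of protein-coding genes was 92686 to 101475 in HC, 94262 to 103216 in Ctrl, 98764 to 114869 in NLH and 83904 to 123646 in LH. LH replicates 3 and 4 stood apart, with 10846 and 15504 transcripts at 0 against 4872 to 7352 in the other 14 mice. Results that rest on LH are therefore also given without them where that moves a call. LH replicate 4 also had the lowest median-ratio size factor, a measure of the scale of a whole library, at 0.816. LH replicates 1 to 3 had 1.16, 1.21 and 0.951. FPKM by mouse below is not divided by these factors, and how far the low values of LH replicate 4 follow this scale was not tested. All 6 neuron markers examined were above 0 in every mouse, with summed levels of 723 to 1016 FPKM. The 5 choroid plexus markers, which come from tissue that borders the hippocampus, summed to between 1.59 and 81.1 FPKM. Both extremes were LH mice. Of 5 striatum markers, 2 were higher in LH than in Ctrl at an unadjusted p of 0.05 by limma, the test used below (8.18% of all genes). The other 3 were lower by sign, and the smallest limma adjusted p of the list was 0.130. The part of either tissue in the results below was not tested.

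Kinesin genes made up 0.525% to 0.587% of all protein-coding FPKM in each mouse. Their levels spanned several orders of magnitude. Of the 40 genes, 23 had a mean of at least 1 FPKM, 12 of these had at least 10 FPKM, and 17 were under 1 FPKM. The 6 highest genes held 70.8% to 73.3% of the members' FPKM in every mouse. Those were Kif5a (mean 116 FPKM over 16 mice), Kif1b (86.6 FPKM), Kif1a (66.8 FPKM), Kif5c (62.4 FPKM), Klc1 (47.8 FPKM) and Kif5b (31.7 FPKM), which are the kinesin-1 chains and the kinesin-3 motors of axonal transport. After them came Kif1bp (29.7 FPKM), a kinesin binding protein without a motor domain, Kifap3 (25.7 FPKM), the subunit that links kinesin-2 to cargo, Kifc2 (19.4 FPKM), a minus-end directed kinesin-14, Klc2 (16.8 FPKM), Kif3c (13.4 FPKM) and Kif2a (12.0 FPKM). At the other end, 4 genes had means under 0.1 FPKM, and Kif2c, a mitotic kinesin-13, was listed at 0 in 14 of 16 mice. Its level rests on 1 named transcript of 629 bases.

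**Figure D1:**
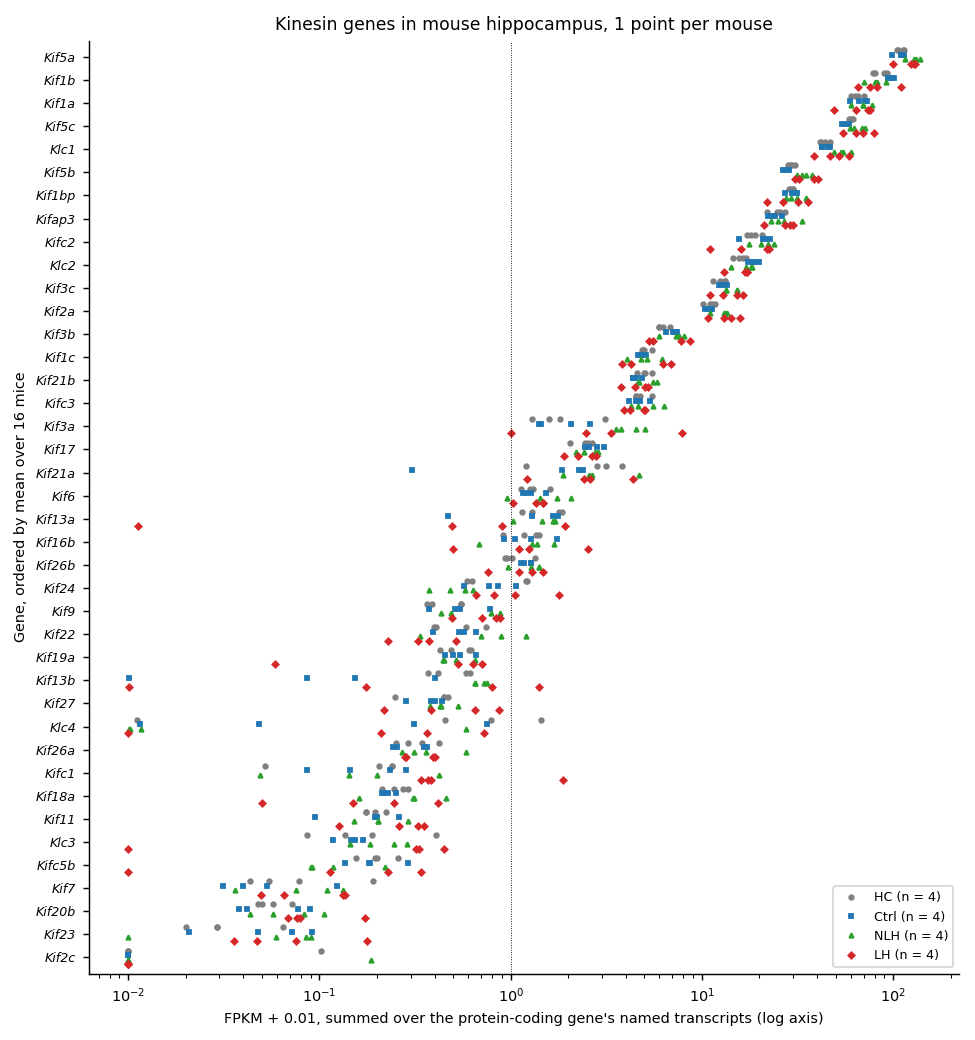
Level of each of the 40 kinesin genes in each mouse, as FPKM + 0.01 on a logarithmic axis, with genes ordered by their mean over 16 mice and 1 point per mouse (HC gray circles, Ctrl blue squares, NLH green triangles, LH red diamonds, n = 4 each). The 12 genes at the top lie at or above 10 FPKM on average with narrow spreads, whereas the points of genes under 1 FPKM scatter widely.

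The levels of the 7 mitotic kinesins were low in all groups. Kif22, which holds chromosome arms on the spindle, had the highest mean of them over the 16 mice. In LH alone the mean of the mitotic Kifc1 (0.731 FPKM) was above that of Kif22 (0.352 FPKM). The Kif22 sum covers named transcripts of 518, 3586 and 642 bases, which share 76 bases or fewer with each other. Kif22 was 0.386, 0.731, 0.398 and 0.577 FPKM in HC replicates 1 to 4 and 0.648, 0.385, 0.530 and 0.562 FPKM in Ctrl. In NLH it was 0.326, 0.686, 0.880 and 1.19 FPKM, and in LH 0.317, 0.363, 0.508 and 0.218 FPKM. The 4 groups overlapped, although 3 of the NLH mice lay above all LH mice. The 5 markers of proliferating cells summed to 0.404 to 0.902 FPKM across the 16 mice, so they too were low in every group.

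Ctrl and HC mice differ by handling, the stay in the shuttle box and the escape trials with their shocks, which cannot be told apart in this comparison. None of the 40 genes passed an adjusted p of 0.05 (limma with Benjamini-Hochberg adjustment over all 14785 genes), where 0.0% of all genes did. At an unadjusted p of 0.05, 1 of 40 (2.5%) passed, against 2.64% of all genes. The median log2 difference, Ctrl minus HC, was -0.03 for members and 0.03 for all genes, and 17 of 40 members were higher in Ctrl against 56.3% of all genes. Groups that did not overlap were 2 of 40 with Ctrl higher (3.87% of all genes) and 1 with Ctrl lower (1.97%). The equal-variance test on untransformed FPKM, a kind of test that the study used for transcripts, gave 5 of 40 at an unadjusted p of 0.05 (9.36% of all genes by the same test) and 0 after adjustment (0.0%).

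Among genes of at least 1 FPKM, those with the smallest p in this comparison were Klc2, Kif21a and Kif1b. Klc2, a light chain, stood at 15.6, 16.3, 14.5 and 16.9 FPKM in HC replicates 1 to 4 and at 19.9, 18.6, 17.4 and 18.4 FPKM in Ctrl. All Ctrl mice lay above all HC mice, and the log2 difference was 0.23 ± 0.11 (SE; limma adjusted p = 1). Kif1b likewise did not overlap, with 89.9, 78.5, 80.4 and 92.7 FPKM in HC against 93.6, 97.3, 101 and 93.8 FPKM in Ctrl (0.18 ± 0.13, limma adjusted p = 1), but the groups overlapped with its assembled isoforms counted in. Kif21a, a kinesin-4, ranged from 1.195 to 3.81 FPKM in HC and from 0.296 to 2.39 FPKM in Ctrl (-0.85 ± 0.53, limma adjusted p = 1), and this difference was -0.22 without Ctrl replicate 1 and became 0.010 when the assembled isoforms described further on were counted in. The 1 gene under an unadjusted p of 0.05 was Kif13b (-1.43 ± 0.64, limma adjusted p = 1), named after its values were seen, and with its assembled isoforms this difference too reversed, to 0.012.

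NLH mice, which received inescapable shocks and did not become helpless, had FPKM values above all Ctrl mice in each kinesin-1 heavy chain, but no gene passed the adjusted threshold. None of the 40 members passed it, nor did any other gene (0.0%), and 5 of 40 (12.5%) passed an unadjusted p of 0.05, all higher in NLH, against 5.96% of all genes in either direction and 4.99% that were higher. By sign, 31 of 40 members were higher in NLH against 63.4% of all genes, with a median log2 difference of 0.17 against 0.07. In 6 of 40 genes all NLH mice lay above all Ctrl mice (5.48% of all genes), and in 1 all lay below (1.25%). The equal-variance test on FPKM gave 10 of 40 at an unadjusted p of 0.05 (10.5% of all genes) and 0 after adjustment (0.0136%).

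The heavy chains of kinesin-1 are Kif5a, Kif5b and Kif5c, of which Kif5a and Kif5c are found mainly in neurons and Kif5b in most cells. Kif5a lies at chr10:127225696-127263348 on the minus strand (GRCm38). It stood at 113, 105, 106 and 114 FPKM in HC replicates 1 to 4, at 99.2, 113, 110.3 and 110.1 FPKM in Ctrl, at 115, 132, 138 and 128 FPKM in NLH and at 128, 129.8, 124 and 99.4 FPKM in LH. All NLH mice lay above all Ctrl mice, while LH replicate 4 lay as low as the lowest Ctrl mouse. The NLH mean was 128 ± 9.78 FPKM (SD, n = 4) against 108 ± 6.20 FPKM in Ctrl, a log2 difference of 0.24 ± 0.09 (SE; limma adjusted p = 0.669).

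Kif5b was 30.6, 29.5, 28.8 and 28.1 FPKM in HC, 26.6, 27.8, 28.7 and 27.6 FPKM in Ctrl, 33.5, 35.2, 37.8 and 31.3 FPKM in NLH and 40.3, 38.6, 32.3 and 30.8 FPKM in LH. Every mouse that had received inescapable shocks lay above every mouse that had not, although with the assembled isoforms described further on LH replicate 4 (31.2 FPKM) lay just below HC replicate 1 (31.3 FPKM). The log2 difference from Ctrl was 0.31 ± 0.10 in NLH (SE; limma adjusted p = 0.509) and 0.35 ± 0.10 in LH (limma adjusted p = 0.159). These were the smallest p-values of any kinesin gene of at least 1 FPKM in either comparison.

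Kif5c, at chr2:49619298-49774778 on the plus strand (GRCm38), was 59.1, 61.2, 59.8 and 61.6 FPKM in HC and 54.3, 57.3, 57.6 and 59.0 FPKM in Ctrl. In NLH it was 62.4, 68.9, 71.2 and 59.8 FPKM and in LH 79.3, 69.3, 63.8 and 54.5 FPKM. In these undivided FPKM values NLH did not overlap with Ctrl, and LH did through replicate 4, the mouse with the lowest size factor (0.816). The log2 differences from Ctrl were 0.20 ± 0.10 in NLH (limma adjusted p = 0.861) and 0.21 ± 0.10 in LH (limma adjusted p = 0.426), where it was 0.13 without LH replicate 1. With median-ratio size factors the NLH differences were 0.16 for Kif5a, 0.23 for Kif5b and 0.12 for Kif5c, and the median of all genes was -0.0027 in place of 0.07. For the 3 heavy chains together the median log2 difference was 0.24 in NLH against Ctrl and 0.21 in LH against Ctrl, comparisons that share the Ctrl mice, and -0.08 in Ctrl against HC. In LH against NLH it was 0.016.

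The light chains differed among themselves. Klc1, the main light chain in neurons, lies at chr12:111758849-111807844 on the plus strand (GRCm38) and was 46.6, 41.8, 41.6 and 43.9 FPKM in HC, 42.6, 47.0, 45.9 and 42.5 FPKM in Ctrl, 49.0, 60.4, 54.7 and 53.4 FPKM in NLH and 58.9, 51.9, 46.5 and 38.6 FPKM in LH. All NLH mice were above all Ctrl mice (0.29 ± 0.11, SE; limma adjusted p = 0.682), and the LH mice spread from below the lowest Ctrl to the level of the highest NLH mice. Klc2 went the other way, with 14.2, 18.4, 18.1 and 17.1 FPKM in NLH and 16.7, 17.2, 17.3 and 12.97 FPKM in LH. All LH mice lay below all Ctrl mice (-0.22 ± 0.11, limma adjusted p = 0.456), a comparison picked out after its values were seen. Without LH replicate 4 the difference was -0.12. Klc3 and Klc4 had means of 0.201 and 0.349 FPKM.

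**Figure D2:**
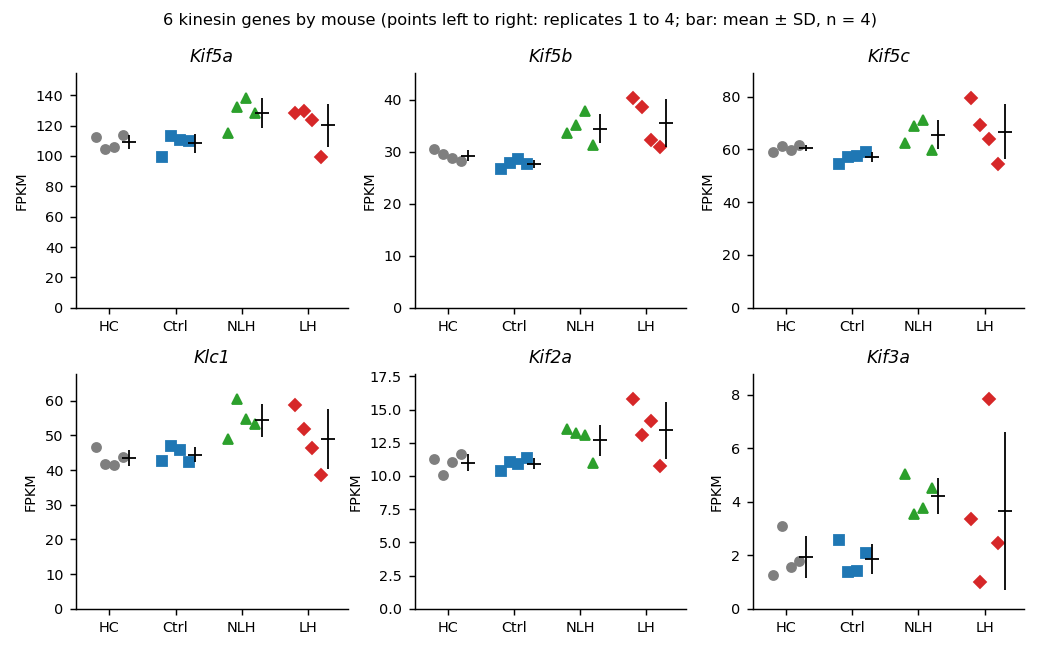
Level in FPKM of Kif5a, Kif5b, Kif5c, Klc1, Kif2a and Kif3a in each mouse, with replicates 1 to 4 from left to right in each group and the mean ± SD (n = 4) as a cross. For Kif5b the 8 mice with inescapable shocks (30.8 to 40.3 FPKM) lie above the 8 HC and Ctrl mice (26.6 to 30.6 FPKM) in these sums of named transcripts. LH replicate 4 is the lowest LH point in all panels but Kif3a.

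Kinesin-2 is a motor of paired heavy chains with the accessory subunit Kifap3, and Kif3a and Kif3b are its best known pair, needed for cilia and for transport in axons. Kifap3 was 27.1, 21.9, 24.7 and 25.5 FPKM in HC, 23.5, 24.0, 26.1 and 22.2 FPKM in Ctrl, 25.0, 26.9, 33.5 and 23.1 FPKM in NLH and 30.1, 28.8, 21.1 and 27.1 FPKM in LH, with overlap throughout. Kif3a was 1.28, 3.09, 1.57 and 1.80 FPKM in HC, 2.58, 1.39, 1.42 and 2.07 FPKM in Ctrl, 5.03, 3.56, 3.78 and 4.52 FPKM in NLH and 3.35, 0.998, 7.84 and 2.46 FPKM in LH. All NLH mice lay above all Ctrl mice, by 1.17 ± 0.43 on the log2 scale (SE; limma adjusted p = 0.65), and the LH mice held both the lowest and the highest value. These sums leave out most of the FPKM at the Kif3a locus, as described further on.

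Kif1b, at chr4:149176319-149307693 on the minus strand (GRCm38), encodes a short form that carries mitochondria and a long form that carries synaptic vesicle precursors. It stood at 70.2, 91.8, 80.7 and 82.5 FPKM in NLH, all below the Ctrl mice (-0.25 ± 0.13, SE; limma adjusted p = 0.86), and at 82.0, 109.6, 75.7 and 65.9 FPKM in LH. With the assembled isoforms NLH replicate 2 (102 FPKM) lay above Ctrl replicate 1 (101 FPKM), so NLH and Ctrl overlapped. Kif13b, of which the named sum was low, was 8.91e-05, 0.144, 0.0759 and 0.392 FPKM in Ctrl and 0.742, 0.719, 0.643 and 0.642 FPKM in NLH, without overlap (1.87 ± 0.64, limma adjusted p = 0.599). Kif1b in NLH and Kif13b were named after their values were seen. Kif1a, which carries synaptic vesicle precursors, had group means of 65.0, 67.4, 69.3 and 65.7 FPKM in HC, Ctrl, NLH and LH.

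LH mice were compared with Ctrl to ask about helplessness and inescapable shock together. None of the 40 members passed the adjusted threshold (0.0541% of all genes did), and 3 of 40 (7.5%) passed an unadjusted p of 0.05, all higher in LH, against 11.8% of all genes in either direction and 8.18% that were higher. The median log2 difference was 0.12 for members and 0.01 for all genes, with 24 of 40 members higher against 51.6% of all genes. Non-overlapping genes were 2 of 40 with LH higher (4.84% of all genes) and 1 with LH lower (1.14%). The equal-variance test on FPKM gave 1 of the 39 genes it could test at an unadjusted p of 0.05 (8.13% of all genes) and 0 after adjustment (0.0%).

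The 3 genes were Kif5b, Kif2a and Kifc1. Kif2a, which depolymerizes microtubules and restrains axon branches, was 11.3, 10.1, 11.1 and 11.6 FPKM in HC, 10.4, 11.1, 10.9 and 11.4 FPKM in Ctrl, 13.5, 13.2, 13.1 and 11.0 FPKM in NLH and 15.8, 13.1, 14.1 and 10.7 FPKM in LH. In LH 3 mice lay above all Ctrl mice and replicate 4 lay within them (0.28 ± 0.11, SE; limma adjusted p = 0.339). Kifc1, a minus-end motor of the spindle named after its values were seen, was 0.135, 0.273, 0.224 and 0.0764 FPKM in Ctrl and 0.358, 0.330, 0.372 and 1.87 FPKM in LH, so all LH mice lay above all Ctrl mice (1.30 ± 0.49, limma adjusted p = 0.31). Without LH replicate 4, the highest of them, the difference was 0.77.

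Kif5b was the member nearest to the threshold in LH against Ctrl. It was called when FPKM was first divided by median-ratio size factors (log2 difference 0.31, limma adjusted p = 0.0366), without LH replicate 4 (0.41, adjusted p = 0.037) and without LH replicates 3 and 4 together (0.51, adjusted p = 0.0152), and its adjusted p ranged up to 0.558 over the alternatives tried. Without LH replicates 3 and 4, Kif5c (0.38), Kif2a (0.39), Klc1 (0.31) and Kif27 (0.87), a kinesin-4, were also called, 5 of 40 in all. In that setting 8.1% of all genes were called and the median log2 difference of all genes was 0.23, so the members' differences stand beside a general one.

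NLH and LH mice received the same 180 inescapable shocks and differ in their behavior in the escape trials, and so also in the length of the test shocks, which ended on escape. None of the 40 genes passed the adjusted threshold (0.00676% of all genes did), and 4 of 40 passed an unadjusted p of 0.05, against 7.03% of all genes. The median log2 difference, LH minus NLH, was -0.09 for members and -0.05 for all genes, and 16 of 40 members were higher in LH against 39.9% of all genes. In 1 gene all LH mice lay above all NLH mice (0.92% of all genes) and in 0 all lay below (1.06%). The equal-variance test on FPKM gave 0 of 40 at an unadjusted p of 0.05 (3.08% of all genes) and 0 after adjustment (0.0%), where limma gave 4 unadjusted.

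Kif13a, a kinesin-3 of membrane cargo, was 1.02, 1.65, 1.71 and 1.45 FPKM in NLH and 0.894, 0.483, 1.90 and 0.0012 FPKM in LH. The difference of -1.39 ± 0.64 (SE; limma adjusted p = 0.707) was -0.54 without LH replicate 4, the mouse in which it was near 0, and -0.033 with the assembled isoforms of the locus counted in. Kifc2, found in dendrites and axons, was 17.6, 20.2, 23.7 and 22.1 FPKM in NLH and 22.0, 22.4, 15.9 and 11.1 FPKM in LH, where the low values were replicates 3 and 4 (-0.28 ± 0.19, limma adjusted p = 0.793). Klc1 differed by -0.16 ± 0.11 (limma adjusted p = 0.793). Without LH replicate 4 these were -0.066 and -0.055, and without LH replicates 3 and 4 both directions reversed, to 0.093 for Kifc2 and 0.028 for Klc1. Klc1 was -0.26 without LH replicate 1, and Kifc2 was -0.15 with its assembled isoforms. The other genes under an unadjusted p of 0.05, named after their values were seen, were Kif24 (0.87 ± 0.31, limma adjusted p = 0.578), the 1 gene without overlap, Kif22 (-0.88 ± 0.32, limma adjusted p = 0.605) and Kifc1 (1.31 ± 0.49, limma adjusted p = 0.621, and 0.78 without LH replicate 4), all with means under 1 FPKM. Kif24 was 0.46 without LH replicates 3 and 4.

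Across the 4 groups at once, 0 of 40 members passed the adjusted threshold of limma's F test (0.0879% of all genes did) and 4 of 40 passed an unadjusted p of 0.05, against 10.4% of all genes. Among the kinesin-4 genes Kif21b had the highest sum of named transcripts, although Kif21a lies above it once assembled isoforms are counted. Kif21b stood at 5.44, 4.98, 4.58 and 5.04 FPKM in HC, 4.36, 4.52, 4.35 and 4.84 FPKM in Ctrl, 4.68, 5.53, 4.63 and 5.81 FPKM in NLH and 5.22, 5.02, 3.76 and 4.48 FPKM in LH. Its groups overlapped in all 4 comparisons.

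**Figure D3:**
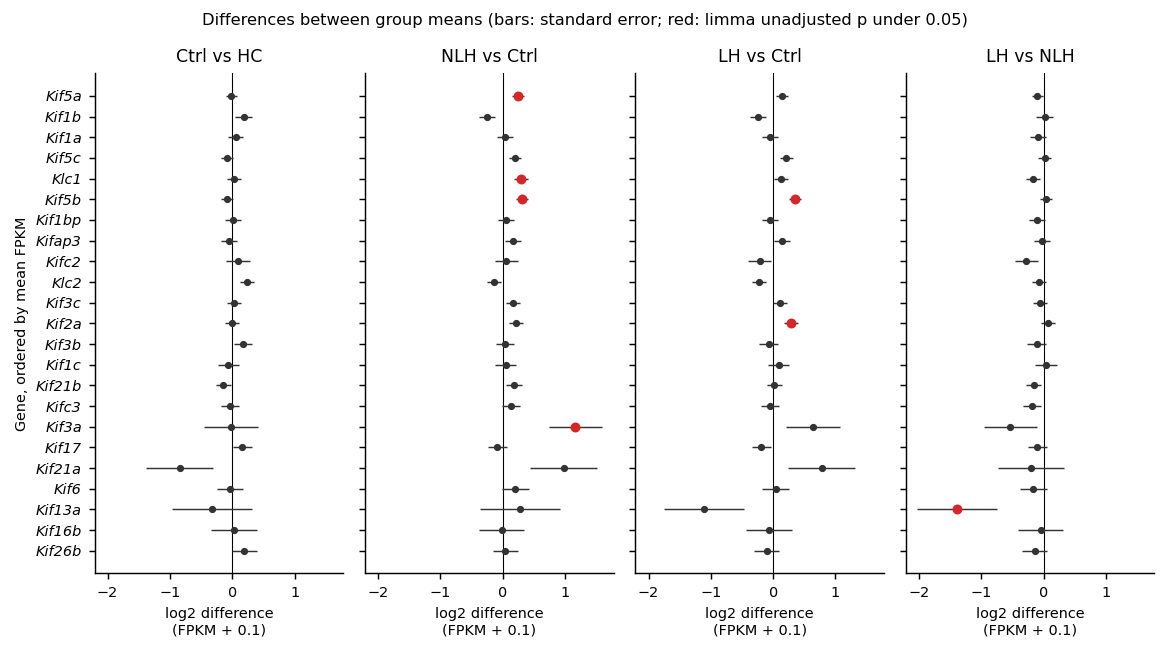
Log2 difference between group means for the 23 kinesin genes of at least 1 FPKM in each of the 4 comparisons, as a point with its standard error, on the scale of log2(FPKM + 0.1), with genes ordered by mean FPKM. Red points have an unadjusted limma p under 0.05: Kif5a, Klc1, Kif5b and Kif3a in NLH against Ctrl, Kif5b and Kif2a in LH against Ctrl, and Kif13a in LH against NLH.

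The 152 transcripts comprised 93 protein-coding ones, 41 with a retained intron, 12 processed transcripts, 5 targets of nonsense-mediated decay and 1 that did not match the annotation. None passed the adjusted threshold in any comparison, where 0.00374%, 0.0125%, 0.0462% and 0.0412% of all 80137 transcripts did in Ctrl against HC, NLH against Ctrl, LH against Ctrl and LH against NLH. At an unadjusted p of 0.05 the members numbered 3, 17, 19 and 11 of 152, against 3.45%, 5.12%, 10.7% and 8.72% of all transcripts. The equal-variance test on FPKM gave 12, 21, 9 and 7 members unadjusted, of 151 or 152 that it could test, against 6.68%, 7.2%, 7.69% and 4.47% of all transcripts. After adjustment it gave 0 members in each, against 0.00126%, 0.00379%, 0.0139% and 0.0%. Isoform shares, the percent of a gene's FPKM in each transcript, could be tested for 105 transcripts of 18 genes. None passed the adjusted threshold (0.0%, 0.0136%, 0.0316% and 0.0362% of 44242 tested), and 1, 11, 18 and 9 of 105 passed an unadjusted p of 0.05, against 3.59%, 5.11%, 11.3% and 9.63%.

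How far a transcript can be told from its neighbors depends on the bases that it alone has. Of 135 transcripts of kinesin genes with several named transcripts, 27 had no base outside the exons of the others and 55 had fewer than 100 such bases. The gene with the most transcripts to share its FPKM was Kif1b. Its main transcript, ENSMUST00000060537.12, has 49 exons and 1819 bases of its own among 10233. ENSMUST00000055647.14 has 47 exons and 0 bases of its own among 5992, so only the junctions that skip exons set it apart. The coding exons that the first has and the second lacks follow, because they distinguish this pair of coding forms, described next. They are printed from GENCODE vM21 transcripts, 5′ to 3′ on the minus strand of chr4 (GRCm38), with the exon bases in capitals and 20 bases of the neighboring exons in lower case. They lie at chr4:149265345-149265362, chr4:149261160-149261201 and chr4:149258004-149258081, and their lengths of 18, 42 and 78 bases are multiples of 3, so they keep the reading frame.
Kif1b 18-base exon: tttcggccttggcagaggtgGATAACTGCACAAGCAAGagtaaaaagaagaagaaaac
Kif1b 42-base exon: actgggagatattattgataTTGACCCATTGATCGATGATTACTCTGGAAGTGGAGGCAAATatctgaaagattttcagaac
Kif1b 78-base exon: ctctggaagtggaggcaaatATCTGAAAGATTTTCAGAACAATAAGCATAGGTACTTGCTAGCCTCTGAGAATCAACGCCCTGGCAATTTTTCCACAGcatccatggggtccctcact

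A further pair of Kif1b transcripts took a large part of its FPKM. ENSMUST00000123593.1 is a retained-intron transcript of 586 bases, of which the first 39 bases, at chr4:149213753-149213791, are its own. ENSMUST00000139123.7 is annotated as coding, has 13 exons, and has 27 coding bases at chr4:149195473-149195499 that the main transcript lacks. Both stretches, which the main transcript does not have, are in capitals below. The forms also lack most of its 10233 bases.
Kif1b retained-intron start: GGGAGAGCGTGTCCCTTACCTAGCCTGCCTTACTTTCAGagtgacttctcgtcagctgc
Kif1b 13-exon form: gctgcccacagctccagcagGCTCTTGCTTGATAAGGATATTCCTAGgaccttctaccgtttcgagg

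The main Kif1b transcript held a smaller share in Ctrl than in any other group. Its share of Kif1b FPKM was 51.1%, 57.8%, 55.1% and 47.8% in HC replicates 1 to 4, 45.4%, 44.5%, 41.9% and 45.8% in Ctrl, 68.5%, 53.1%, 62.6% and 53.7% in NLH and 65.5%, 45.6%, 61.6% and 63.7% in LH. Ctrl overlapped with neither HC nor NLH, and LH replicate 2 lay just within the range of Ctrl. On the arcsine scale of the test the difference was -0.09 ± 0.05 for Ctrl against HC (limma adjusted p = 1), 0.15 ± 0.05 for NLH against Ctrl (limma adjusted p = 0.62) and 0.15 ± 0.05 for LH against Ctrl (limma adjusted p = 0.27). Its FPKM varied less, from 41.9 to 53.7 over all mice.

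The 47-exon form took a larger share in all NLH and LH mice than in any Ctrl mouse. Its share was 6.80%, 7.44%, 5.14% and 7.66% in HC, 6.10%, 7.95%, 6.25% and 6.12% in Ctrl, 13.4%, 14.6%, 11.6% and 10.5% in NLH and 8.92%, 8.82%, 10.3% and 11.5% in LH. On the arcsine scale the difference from Ctrl was 0.10 ± 0.03 in NLH (SE; limma adjusted p = 0.408) and 0.06 ± 0.03 in LH (limma adjusted p = 0.41). Its level was 5.71, 7.74, 6.34 and 5.74 FPKM in Ctrl against 9.38, 13.4, 9.40 and 8.67 FPKM in NLH. These did not overlap, and the log2 difference in level was 0.66 ± 0.17 (SE; limma adjusted p = 0.445). HC stood at 4.14 to 7.10 FPKM and LH at 7.32 to 9.67 FPKM.

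The retained-intron transcript took 28.1%, 23.6%, 29.7% and 24.6% of Kif1b in Ctrl, 21.6%, 16.9%, 20.8% and 25.0% in HC, 8.01%, 18.9%, 12.8% and 17.9% in NLH and 13.8%, 24.9%, 17.0% and 8.37% in LH. All NLH mice lay below all Ctrl mice (limma adjusted p = 0.62), and LH overlapped through replicate 2 (limma adjusted p = 0.327). The 13-exon form was 12.6, 15.7, 14.1 and 14.1 FPKM in Ctrl and 5.68e-05, 16.3, 2.35e-22 and 4.05e-06 FPKM in LH, so 3 LH mice were close to 0 and replicate 2 was the highest of all. Its log2 difference of -5.31 ± 1.49 (SE; limma adjusted p = 0.219) was -7.15 without LH replicate 2 (limma adjusted p = 0.0125), and the difference in share became -0.39 (limma adjusted p = 0.00917); both calls therefore rest on leaving out 1 mouse. In NLH this form was 0.348, 3.78, 7.75e-15 and 6.38 FPKM and in HC 10.5, 5.95, 6.13 and 10.2 FPKM. The short form of Kif1b, ENSMUST00000030806.5 with 21 exons, has 4750 bases of its own among 6991 and took 2.75% to 5.43% of Kif1b in every mouse.

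**Figure D4:**
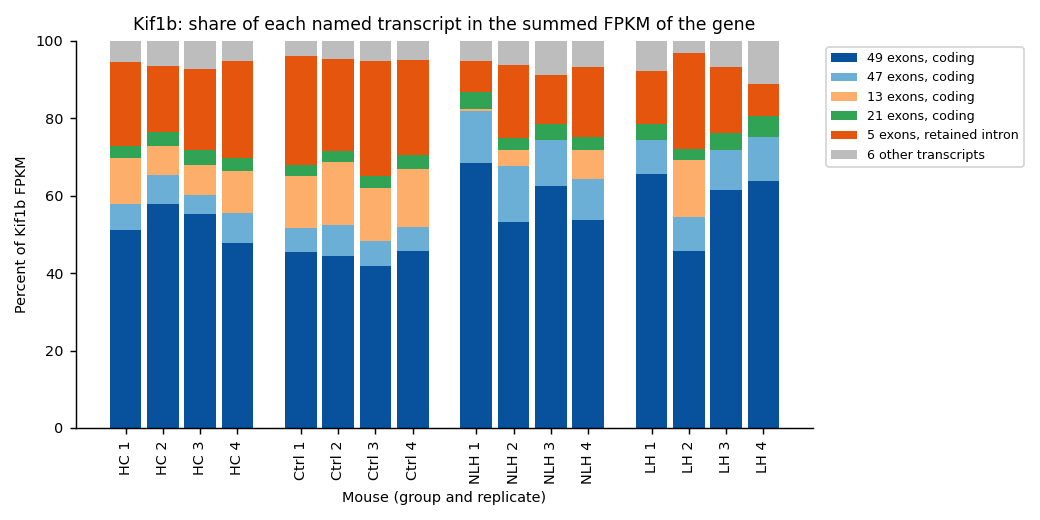
Percent of Kif1b FPKM in each transcript, 1 stacked bar per mouse from 0 to 100%, with the 49-exon, 47-exon, 13-exon and 21-exon coding transcripts, the 5-exon retained-intron transcript and the 6 others together in gray. The 49-exon transcript takes 41.9% to 45.8% in Ctrl, and the 13-exon form is visible in all HC and Ctrl mice but in only 1 LH mouse.

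Retained-intron transcripts together held 5.68% to 6.94% of the members' FPKM in HC, 6.67% to 8.29% in Ctrl, 3.26% to 5.86% in NLH and 4.18% to 6.01% in LH. Without Kif1b the group means were 2.45%, 2.59%, 2.20% and 1.92%, and over all protein-coding genes they were 8.69%, 8.49%, 7.81% and 7.79%. With Kif1b they were 6.35%, 7.59%, 4.80% and 5.02%, so most of the difference lay in Kif1b. Over all genes the means of NLH and LH were below that of Ctrl as well. There LH replicate 4 went the other way, at 9.64% against 8.31% to 8.87% in Ctrl.

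Kif3a transcript ENSMUST00000057330.14 had the smallest p of any kinesin transcript. It was 1.27, 1.89, 1.17 and 1.45 FPKM in HC, 1.06, 0.790, 1.04 and 1.40 FPKM in Ctrl, 2.56, 2.95, 3.04 and 2.63 FPKM in NLH and 1.39, 0.997, 2.19 and 2.45 FPKM in LH. The 4 NLH mice lay above all 12 others. The log2 difference was 1.32 ± 0.25 for NLH against Ctrl (SE; limma adjusted p = 0.158) and -0.72 for LH against NLH (limma adjusted p = 0.442). For NLH against Ctrl the limma adjusted p was 0.0321 when LH replicates 3 and 4 were left out of the fit, which changes the spread but none of the values compared. It lacks a 9-base coding stretch at chr11:53590717-53590725 (GRCm38, plus strand) that ENSMUST00000120613.8 has, shown in capitals because this short run is the coding difference between the pair, and it has 0 bases of its own among 2290.
Kif3a 9-base stretch: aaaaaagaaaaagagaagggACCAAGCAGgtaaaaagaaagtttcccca

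The level of ENSMUST00000120613.8 was erratic between mice of 1 group, from 0.00089 to 1.43 FPKM in Ctrl and from 0.000777 to 5.42 FPKM in LH.

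In LH against Ctrl the transcripts with the smallest p belonged to Kif5b and Kif2a. Kif5b transcript ENSMUST00000025083.13 was 16.2, 17.9, 17.7 and 17.1 FPKM in Ctrl and 26.9, 24.6, 26.8 and 20.1 FPKM in LH, without overlap (0.50 ± 0.11, SE; limma adjusted p = 0.137). Without LH replicate 4 its adjusted p was 0.0486 by limma. Kif2a transcript ENSMUST00000022204.15 was 5.09, 5.19, 5.30 and 5.36 FPKM in Ctrl and 8.19, 6.99, 8.14 and 6.45 FPKM in LH, also without overlap (0.49 ± 0.12, limma adjusted p = 0.164). A second Kif2a transcript, ENSMUST00000159772.7, has a 114-base coding exon that the first lacks, at chr13:106969704-106969817 (GRCm38, minus strand), and its share of Kif2a was 33.3% to 36.5% in Ctrl and 20.2% to 32.6% in LH, without overlap (limma adjusted p = 0.386). The exon is shown in capitals since it is the coding difference between the pair, which also differ outside the coding sequence.
Kif2a 114-base exon: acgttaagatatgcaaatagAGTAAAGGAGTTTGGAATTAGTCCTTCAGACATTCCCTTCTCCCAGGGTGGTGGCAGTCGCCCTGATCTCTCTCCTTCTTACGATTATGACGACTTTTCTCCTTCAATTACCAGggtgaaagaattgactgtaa

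The shares with the smallest p in LH against Ctrl belonged to Kif1c, a kinesin-3 of vesicle transport, and Klc2. Kif1c transcript ENSMUST00000152618.8 took 22.1%, 16.9%, 23.1% and 19.3% of Kif1c in Ctrl, 12.6%, 15.002%, 13.1% and 21.0% in NLH and 13.7%, 8.20%, 5.61% and 6.19% in LH. All LH mice lay below all Ctrl mice (-0.18 ± 0.04 on the arcsine scale, SE; limma adjusted p = 0.113; adjusted p = 0.0455 without LH replicate 1), and against NLH the difference was -0.11 (limma adjusted p = 0.393). This transcript has 13 exons and ends its coding sequence early, with 110 coding bases at chr11:70707087-70707196 (GRCm38, plus strand) that the transcript ENSMUST00000094499.10 lacks. They are in capitals below and mark the end that sets this form apart.
Kif1c alternative coding end: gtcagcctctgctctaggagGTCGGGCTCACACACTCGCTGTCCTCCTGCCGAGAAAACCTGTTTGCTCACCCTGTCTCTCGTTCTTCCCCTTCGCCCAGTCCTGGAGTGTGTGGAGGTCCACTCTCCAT

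Klc2 transcript ENSMUST00000116563.7 took 39.9%, 46.7%, 49.4% and 40.8% of Klc2 in Ctrl, 72.1%, 59.3%, 51.8% and 54.2% in NLH and 75.7%, 53.3%, 57.9% and 77.4% in LH. All NLH and LH mice lay above all Ctrl mice (LH against Ctrl 0.23 ± 0.06 on the arcsine scale, SE; limma adjusted p = 0.191). It carries 6 coding bases, at chr19:5110259-5110264 (GRCm38, minus strand), that ENSMUST00000025798.12 lacks.
Klc2 6-base stretch: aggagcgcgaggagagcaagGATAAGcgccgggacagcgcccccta

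Other isoforms named by their p were spread over the family. In LH against NLH they were Kif21b ENSMUST00000130864.8, annotated as a target of nonsense-mediated decay, and the retained-intron transcript of Kif6, ENSMUST00000024798.11. The first was 2.49, 2.97, 2.23 and 2.79 FPKM in NLH and 1.31, 2.60, 2.41 and 1.38 FPKM in LH (-0.48, limma adjusted p = 0.53), and the second took 66.7%, 54.4%, 56.7% and 60.5% of Kif6 in NLH and 52.2%, 30.3%, 37.6% and 5.26% in LH, without overlap (-0.31 on the arcsine scale, limma adjusted p = 0.386, and -0.20 without LH replicate 4). In Ctrl against HC the named isoforms all had an adjusted p of 1: Klc1 ENSMUST00000122300.7 was 0.303, 0.511, 0.865 and 0.820 FPKM in HC and 1.52, 2.09, 0.926 and 0.778 FPKM in Ctrl (0.97), Kif1b ENSMUST00000150230.1 was 1.57 to 1.86 FPKM in HC and 1.15 to 1.59 FPKM in Ctrl (-0.27), and Kif16b ENSMUST00000142078.1 took up to 19.5% of Kif16b in HC and up to 5.46% in Ctrl (-0.19 on the arcsine scale).

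The authors' assembly also placed isoforms without a gene name at these loci, and the gene sums above leave them out. There were 69 of them at 22 loci, and 20 of those loci could be used, since the loci of Kif17 and Klc2 also carry other genes. They held 86.7% of the locus FPKM for Kif13b, 85.3% for Kif21a, 83.5% for Kif3a and 76.4% for Klc4, and 44.5% or less at the others. For Kif3a the assembled isoforms averaged 14.8 FPKM against 2.92 FPKM for the named transcripts. None of the 69 passed the adjusted threshold, and 2, 2, 12 and 9 of them passed an unadjusted p of 0.05 in Ctrl against HC, NLH against Ctrl, LH against Ctrl and LH against NLH, where 3.45%, 5.12%, 10.7% and 8.72% of all 80137 transcripts did.

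**Figure D5:**
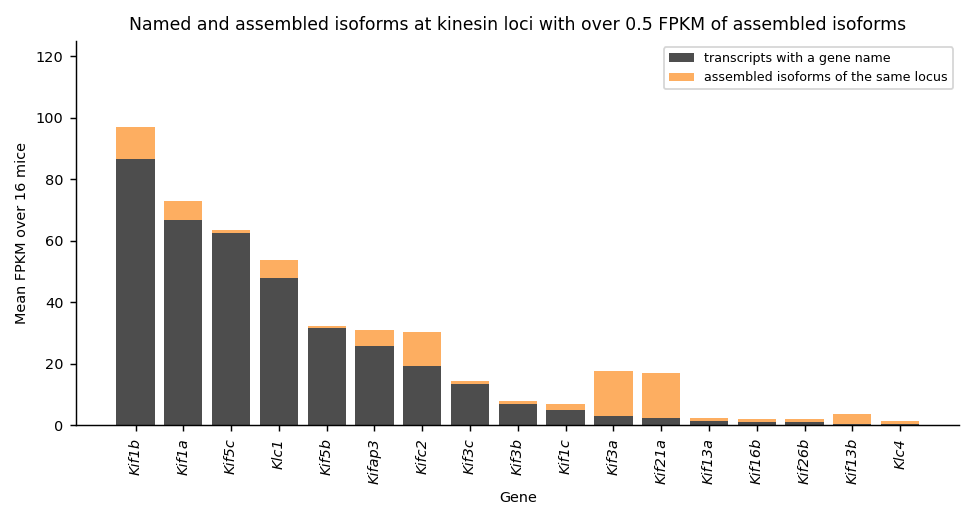
Mean FPKM over 16 mice of the transcripts with a gene name (dark) and of the assembled isoforms without one (orange), stacked from 0, at the 17 kinesin loci where the assembled isoforms exceed 0.5 FPKM. At Kif3a, Kif21a, Kif13b and Klc4 most of the bar is orange.

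With the assembled isoforms counted in, an alternative added after the data were seen, Kif3a stood at 15.5, 16.1, 14.9 and 16.5 FPKM in HC. It was 15.6, 16.3, 17.0 and 16.5 FPKM in Ctrl, 18.7, 21.5, 20.5 and 17.9 FPKM in NLH and 21.1, 19.5, 17.98 and 17.6 FPKM in LH. All NLH and LH mice lay above all HC and Ctrl mice. The log2 differences from Ctrl were 0.26 in NLH (limma adjusted p = 0.532) and 0.21 in LH, against 1.17 and 0.63 for the named transcripts. The last value was 0.16 without LH replicate 3 and 1.11 without LH replicate 2. Kif21a stood at 14.6, 15.8, 16.2 and 16.3 FPKM in Ctrl, 19.7, 19.4, 18.8 and 17.3 FPKM in NLH and 20.9, 18.2, 18.5 and 15.5 FPKM in LH (NLH against Ctrl 0.26, limma adjusted p = 0.599). For Kif13b the NLH difference went from 1.87 to 0.17 and NLH then overlapped with Ctrl, so the size of these differences depends on which isoforms are counted. With its assembled isoforms Kif13b was 3.92 to 4.67 FPKM in LH, above Ctrl (2.87 to 3.53 FPKM) and HC (2.88 to 3.61 FPKM). That separation was picked out after the values were seen.

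Other genes of microtubule transport were counted in the same way, beside 4.99% of all genes higher in NLH and 8.18% higher in LH at an unadjusted p of 0.05, with all-gene medians of 0.07 and 0.01. Of 27 kinesin adaptors and cargo linkers, which attach motors to vesicles and mitochondria, 3 were higher in NLH and 4 in LH than in Ctrl at an unadjusted p of 0.05, with median log2 differences of 0.08 and 0.02. Of 22 dynein and dynactin genes, the motor that walks toward the cell body, 5 were higher in NLH and 3 in LH than in Ctrl (medians 0.12 and 0.10). Of 20 microtubule-associated proteins, which stabilize the track, 3 were higher in each (medians 0.15 and 0.16). None was lower at that threshold in these comparisons, and none of these genes passed the adjusted threshold in any of the 4 comparisons.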

How the data were processed

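Total RNA libraries were sequenced as paired ends from the hippocampus of 16 mice. The authors aligned the reads to mm10, assembled transcripts with StringTie, merged over all samples, and deposited FPKM values per transcript and mouse from Cufflinks. The aligner is HISAT2 in the methods and STAR 2.42a in the submitters' processing notes, which also give StringTie 1.2.3. Counts were not used here and read depth is not given in the sources used here, so no interval or floor from depth is given; p-values measure the spread between mice.

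Gene levels were summed over named transcripts of protein-coding genes. With limma 3.58.1 in R 4.3.3 (trend and robust), log2(FPKM + 0.1) was fitted over all 16 mice with 4 group means, and p-values were adjusted by the Benjamini-Hochberg method over all genes or transcripts. Shares were tested on the arcsine of their square root for genes with a mean of at least 1 FPKM. Alternatives changed the value added before the logarithm, the filter on low values, the scaling (size factors), the test, the replicate block, the mice included and, chosen after seeing the data, the assembled isoforms counted in a gene. The fits were tested on simulated data for LH against Ctrl, with log2 shifts of 2 for genes and transcripts and arcsine shifts of 0.4 for shares. They recovered 93% of the shifted genes, 76.5% of the transcripts and 52% of the shares. Shifts as small as that of Kif5b were not simulated. Transcript sequences and coordinates are from GENCODE vM21 (GRCm38).

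Genes chosen by rule were the highest on average among kinesin-1 heavy chains, light chains, kinesin-2, kinesin-3, kinesin-4, kinesin-13 and mitotic kinesins. In each comparison they were also the 3 genes with the smallest p among those of at least 1 FPKM. Isoforms chosen per comparison were the 2 transcripts of at least 1 FPKM and the 2 shares of at least 5% on average with the smallest p. The members and lists were chosen with earlier results of these data known. Replicate numbers did not pair mice: over 24 pairs the median correlation of deviations was -0.03. No column of values was left unmapped (0).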

Additional observations from a re-analysis of the deposited data

Results flagged for a closer look

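Among 124 groups of 4 values examined, 3 held a mouse whose gap to the other values exceeded Dixon's critical value, where chance flags about 1 group in 20. Klc2 was 12.97 FPKM in LH replicate 4, below the 16.7 to 17.3 FPKM of the other LH mice. These values were not divided by size factors, and LH replicate 4 had the lowest factor (0.816). How far this gap follows the scale of that library was not tested. The share of Kif1b transcript ENSMUST00000055647.14 was 7.95% in Ctrl replicate 2, above the 6.10% to 6.25% of the other Ctrl mice. The level of the same transcript was 13.4 FPKM in NLH replicate 2, above the 8.67 to 9.40 FPKM of the other NLH mice.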

How the results depend on the processing

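The counts of kinesin genes, transcripts and shares past an adjusted p of 0.05 were 0 in all comparisons as reported, and the counts were the same under 303 of 316 alternative values. The exceptions concern LH. With median-ratio size factors, 1 gene and 1 transcript were called in LH against Ctrl. Leaving out 1 LH mouse at a time gave 0 to 1 genes and 0 to 1 transcripts in LH against Ctrl, where the gene was called without LH replicate 4 and the transcript without LH replicate 2 or 4, and 0 to 3 shares, with 1 without LH replicate 1 and 3 without LH replicate 2. Without LH replicates 3 and 4 together, LH against Ctrl gave 5 genes (8.1% of all genes), 2 transcripts (0.413% of all transcripts) and 1 share (0.0542% of all shares), LH against NLH gave 1 transcript (0.0948%), NLH against Ctrl gave 1 transcript (0.0412%), and the F test over the 4 groups gave 4 genes (6.71%). In LH against Ctrl, size factors called 0.345% of all genes and 0.166% of transcripts, leaving out LH replicate 4 called 1.68% of genes and 0.0836% of transcripts, leaving out LH replicate 2 called 0.387% of transcripts and 0.418% of shares, and leaving out LH replicate 1 called 0.235% of shares, against 0.0541%, 0.0462% and 0.0316% as reported. With the replicate block, 0 members were called in each comparison, with 0, 6, 3 and 4 genes unadjusted in Ctrl against HC, NLH against Ctrl, LH against Ctrl and LH against NLH, against 2.5%, 5.9%, 11.3% and 6.7% of all genes, so the block changed no call.

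Of 1398 values for single genes and isoforms, 4 reversed. In Ctrl against HC, Kif21a became 0.010 and Kif13b 0.012 with the assembled isoforms of the locus counted in, since these hold most of the FPKM there. In LH against NLH, Kifc2 became 0.093 and Klc1 0.028 without LH replicates 3 and 4; the cause was not tested. With 1 added before the logarithm, 17 of 42 differences shrank by over 1.5 times while keeping their direction, and 5 grew as much with 0.01. Without LH replicates 3 and 4 together, 22 of 55 moved that far and 10 of 57 did without LH replicate 4. Another 19 values kept their direction and passed the threshold that they missed as reported. They belonged to genes or isoforms of Kif1b, Kif1c, Kif26b, Kif27, Kif2a, Kif3a, Kif5b, Kif5c and Klc1. With size factors these were Kif5b and a Kif5c transcript in LH against Ctrl, and the others came from leaving out LH mice.

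With 4 mice per group an exact permutation test cannot go below 0.0286. FPKM without counts gives no measurement error for low genes, and assignment of reads between transcripts that share their bases was not tested here.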
